A study of Homo sapiens with 6 samples.

Results

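The 10 genes described here carry out the making and loading of microRNAs (miRNAs): *DROSHA*, *DGCR8*, *XPO5*, *DICER1*, *TARBP2*, *AGO1*, *AGO2*, *AGO3*, *AGO4* and *TNRC6A*. They were found by gene symbol, 10 of the 30270 genes in the deposited table of estimated counts, and all 10 passed the filter on low counts. The RNA came from HEK 293T cells, an immortalized human embryonic kidney line, with 3 wild-type libraries (WT) and 3 libraries of a double knockout of TENT3A and TENT3B, which are TUT4 and TUT7 (ΔTUT4/7). Both groups were kept in the same medium with no treatment, total RNA was depleted of rRNA before library construction, and the study asked how loss of both terminal uridylyltransferases alters the transcriptome. The WT cells came from ATCC, and the knockout line was made earlier and given by another laboratory. Whether these WT cells are its parent line is not given in the sources used here. The knockout thus cannot be told apart from a difference in the origin of the cells. Whether the knockout line was 1 clone is not given either, and the identity of the cells was not tested with marker genes.

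MiRNAs are cut from long primary transcripts in the nucleus by the Microprocessor, which pairs the ribonuclease DROSHA with the RNA-binding protein DGCR8. Exportin-5, the product of *XPO5*, carries the hairpin precursor to the cytoplasm, where DICER1 and its partner TRBP, encoded by *TARBP2*, cut it to a duplex. One strand is held by an Argonaute protein (AGO1 to AGO4), which recruits TNRC6A and its paralogs to repress the target mRNA. TUT4 and TUT7 add uridines to the 3′ ends of precursors, among them those of the let-7 family, and of mRNAs.

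Library totals ran from 18757228 to 33148937 estimated counts, and the mean count of the 10 genes over the 6 libraries ran from 596 (*TARBP2*) to 6587 (*DICER1*). The targeted genes were read first. *TUT7* fell from 62.61 ± 2.17 to 26.27 ± 1.04 CPM (CPM, a gene's count relative to its library total after TMM scaling, as mean ± SD, n = 3; adjusted p = 2.2e-13 in edgeR), but *TUT4* stood at 211.4 ± 5.08 in WT and 906.3 ± 21.4 in the libraries labelled ΔTUT4/7, 4.29-fold higher (edgeR, adjusted p = 7.89e-19). The *TUT4* count was thus not lower in the libraries labelled as its knockout. The edited position in the gene is not given in the sources used here and an edited allele can still be transcribed, so a count over the whole gene does not check the label, and every direction below rests on it. The comparison was broad. Of 23952 tested genes, 28.6% were called higher and 29.0% lower at a false discovery rate (FDR) under 0.05. At 2-fold or more, 5.90% were called higher and 12.4% lower, and for 62.7% the 3 values of one group lay entirely above or below those of the other.

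Against that background, 5 of the 10 genes were called higher in the libraries labelled ΔTUT4/7 (*DROSHA*, *XPO5*, *TARBP2*, *AGO1* and *TNRC6A*), 2 were called lower (*AGO2* and *AGO4*) and 3 were not called (*DGCR8*, *DICER1* and *AGO3*). Only *DROSHA* and *TARBP2* of the 10 reached 2-fold. The groups did not overlap for 7 of the 10, the same 7 that were called. The median log2 fold change of the 10 genes was 0.065, beside -0.020 over all tested genes and 0.063 over the 15575 tested genes whose counts averaged at least 50. Of these 15575 genes, 39.2% were called higher and 31.7% lower. In bulk RNA, a change in all cells cannot be told apart from a larger change in some of them.

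**Figure D1:**
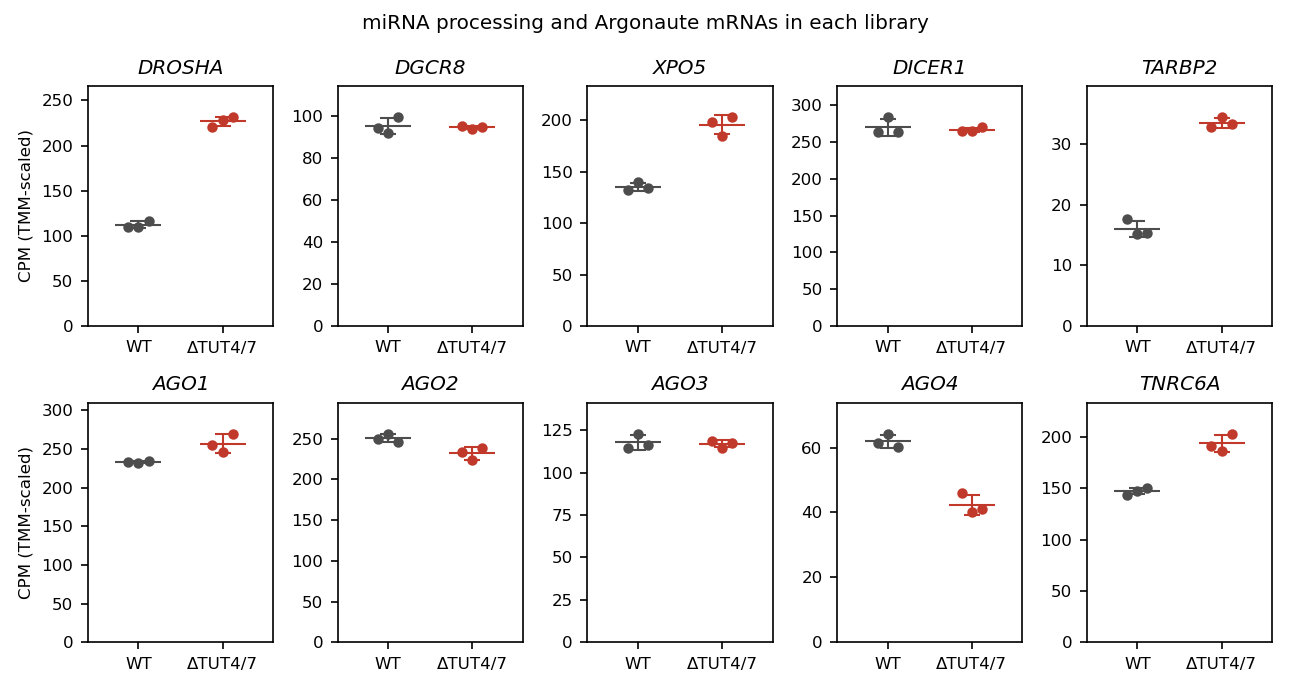
CPM of each gene (TMM-scaled, linear axis from 0) in the 3 WT libraries (grey) and the 3 labelled ΔTUT4/7 (red), with the group mean and SD as bars. The groups are apart by about 2-fold for *DROSHA* and *TARBP2*, while the points of *DGCR8*, *DICER1* and *AGO3* overlap.

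The sequences below are shown because *DROSHA* and *TARBP2* rose by about 2-fold, *DGCR8* was not called and *AGO4* had the largest decrease of the 10. Each is the 250 bases before a transcription start given by RefSeq on GRCh38.p14, written 5′ to 3′ on the gene's strand, with the CCAAT box (CCAAT or its reverse complement ATTGG) and the GC box (GGGCGG or CCGCCC) in capitals. The *DROSHA* window is chr5:31532094-31532343 (minus strand), that of *DGCR8* chr22:20079991-20080240 (plus), that of *TARBP2* the first of its 3 windows, chr12:53500673-53500922 (plus), and that of *AGO4* chr1:35807766-35808015 (plus).
DROSHA: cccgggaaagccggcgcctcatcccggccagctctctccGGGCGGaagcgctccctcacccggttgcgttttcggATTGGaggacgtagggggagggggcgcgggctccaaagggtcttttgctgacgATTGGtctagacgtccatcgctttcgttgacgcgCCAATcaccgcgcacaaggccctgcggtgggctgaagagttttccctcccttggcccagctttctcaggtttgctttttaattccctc
DGCR8: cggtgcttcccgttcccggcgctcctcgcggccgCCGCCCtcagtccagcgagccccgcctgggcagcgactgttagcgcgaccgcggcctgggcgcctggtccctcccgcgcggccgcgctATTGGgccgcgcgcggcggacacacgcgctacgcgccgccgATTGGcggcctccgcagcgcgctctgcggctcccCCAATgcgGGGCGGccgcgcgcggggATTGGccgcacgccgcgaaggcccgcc
TARBP2: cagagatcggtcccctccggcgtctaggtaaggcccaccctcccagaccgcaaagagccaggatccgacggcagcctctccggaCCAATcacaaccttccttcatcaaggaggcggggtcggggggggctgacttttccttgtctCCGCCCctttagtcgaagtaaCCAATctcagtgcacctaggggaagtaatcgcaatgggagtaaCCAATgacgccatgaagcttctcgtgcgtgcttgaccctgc
AGO4: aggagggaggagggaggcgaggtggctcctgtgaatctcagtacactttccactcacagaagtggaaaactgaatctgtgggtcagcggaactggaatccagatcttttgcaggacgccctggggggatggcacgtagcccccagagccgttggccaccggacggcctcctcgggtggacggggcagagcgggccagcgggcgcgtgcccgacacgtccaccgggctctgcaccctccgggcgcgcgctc

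The *DROSHA* window and the first of *TARBP2* each held 3 CCAAT boxes and that of *DGCR8*, whose mRNA was not called, held 4. The 2 other windows of *TARBP2*, not printed, held 0 and 1. Of the other genes called higher, also not printed, *XPO5* held 0 and *AGO1* and *TNRC6A* 1 each. The starts used for *AGO1* and *TNRC6A* lay 13401 and 119442 bp from the start of the counted gene. For the 4 windows printed this distance was 103 bp or less. *AGO3* held 0 and each window of *DICER1* 0 or 1. The *AGO4* window held none of the 5 motifs searched. Among 35116 windows of the same length, 32.0% held at least 1 CCAAT box and 42.6% at least 1 GC box on either strand. The other motifs searched were the E-box CACGTG (6.3% of windows), the ETS core CCGGAA (14.5%) and TATAAA (10.7%), and the 4 windows printed held none of these. A match of letters is a description and was not tested for binding of a factor.

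Let-7 was the miRNA family on which the study dwelt, and *DICER1* is a known let-7 target through sites in its coding sequence. Mature let-7 miRNAs share a seed (bases 2 to 8, capitals), as RefSeq gives it for a pair of them.
let-7a-5p: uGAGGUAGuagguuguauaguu
let-7i-5p: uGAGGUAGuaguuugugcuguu
A heptamer opposite this seed (CTACCTC, capitals) was searched in the canonical transcript of each gene in GENCODE 44 (hg38). *DICER1* held 4, all in coding sequence on the minus strand of chromosome 14, at chr14:95107889-95107895 in exon 16, chr14:95103749-95103755 and chr14:95103641-95103647 in exon 21 and chr14:95094107-95094113 in exon 24. They are printed in that order with the 14 bases before the heptamer and 1 after.
DICER1 exon 16: cagcatactgtgttCTACCTCt
DICER1 exon 21, upstream: acccgtgcaaccaaCTACCTCa
DICER1 exon 21, downstream: aaatgctaacaaatCTACCTCa
DICER1 exon 24: gatgcgattttggaCTACCTCa
*TARBP2* held 1 in its 3′ UTR, at chr12:53506251-53506257 in exon 9.
TARBP2: tgtgggtgccatctCTACCTCt

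*XPO5* held 1 heptamer in coding sequence, *AGO1* 1 in the 3′ UTR, *AGO3* 1 in coding sequence and 1 in the 3′ UTR, and *AGO2* 2 in the 3′ UTR. *DROSHA*, *DGCR8*, *AGO4* and *TNRC6A* held none. Over 19701 canonical coding transcripts, 22.1% held at least 1 heptamer, 13.3% in coding sequence and 9.5% in the 3′ UTR. These shares were not adjusted for length, and the 3′ UTRs of *AGO1*, *AGO2* and *AGO3* were 10925, 11888 and 16755 nt long. The genes with a heptamer were found among those called higher (*XPO5*, *TARBP2*, *AGO1*), lower (*AGO2*) and not called (*DICER1*, *AGO3*). Pairing with let-7 was not measured in these libraries.

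*DROSHA*, the ribonuclease III of the Microprocessor, lies on the minus strand of chromosome 5 (31400497 to 31532196, hg38). Its level was 109.8, 109.9 and 116.5 CPM in WT replicates 1 to 3, and 220.8, 228.1 and 231.3 CPM in those labelled ΔTUT4/7. Every knockout-labelled library lay well above every WT library. The means were 112.1 ± 3.85 and 226.7 ± 5.35 (SD, n = 3), a log2 fold change of 1.02 ± 0.0455 (standard error; adjusted p = 5.13e-14, edgeR's quasi-likelihood test). The 21 expressed genes within 5 Mb on each side had a median log2 fold change of 0.51, with quartiles of -0.288 and 0.963. *DROSHA* thus stood 0.51 above the median of its neighbours but only just above their upper quartile.

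*DGCR8*, the RNA-binding partner that holds the primary hairpin, lies on the plus strand of chromosome 22 (20080232 to 20111877). It gave 94.23, 91.91 and 99.23 CPM in WT, and 95.11, 93.82 and 94.44 CPM in the libraries labelled ΔTUT4/7. The knockout-labelled values fell inside the WT range. The log2 fold change was -0.011 ± 0.0485 (adjusted p = 0.868), and the 95% interval of the ratio ran from 0.926 to 1.06. The *DGCR8* gene also holds the mature sequences of miR-3618 (chr22:20085797-20085818) and miR-1306-3p (chr22:20086112-20086129), which lie in hairpins of the *DGCR8* mRNA that the Microprocessor itself is known to cut. Their mature sequences in RefSeq are shown with the seed in capitals, and their seeds differ from each other and from that of let-7.
miR-3618: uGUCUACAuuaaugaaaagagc
miR-1306-3p: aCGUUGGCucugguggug

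Inside each library, the log2 ratio of *DGCR8* to *DROSHA* was -0.22, -0.26 and -0.23 in WT and -1.22, -1.28 and -1.29 in those labelled ΔTUT4/7. The difference of the means was -1.03 on the log2 scale, 0.49 of the WT ratio, and the groups were far apart. A ratio within a library does not depend on how libraries are scaled. With 3 against 3 libraries the two-sided exact permutation test cannot go below p = 0.1, which is what it gave for this and for each of the 5 other ratios computed (0.1 after adjustment over the 6).

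*XPO5*, the exporter of precursor hairpins, lies on the minus strand of chromosome 6 (43522334 to 43576038). The WT libraries gave 132.7, 140.0 and 134.1 CPM and those labelled ΔTUT4/7 gave 198.5, 185.2 and 203.0. The lowest knockout-labelled value was above the highest in WT. The mean rose from 135.6 ± 3.88 to 195.5 ± 9.26 CPM, 1.44-fold (log2 0.53 ± 0.0472, adjusted p = 3.42e-09). *POLR1C*, a subunit of RNA polymerases I and III on the opposite strand, overlaps *XPO5* over 40086 bp. It holds 2.363% of the 76-base words of the *XPO5* transcript, and it was itself higher (39.9 ± 3.05 in WT against 65.23 ± 2.83 CPM). The strand setting of the counting is not given in the sources used here, and the part of shared reads in the *XPO5* value was not tested.

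*DICER1*, the cytoplasmic ribonuclease III, lies on the minus strand of chromosome 14 (95086228 to 95158010). The values were 263.5, 283.7 and 263.1 CPM in WT, and 264.6, 264.4 and 270.2 CPM in the libraries labelled ΔTUT4/7. The groups overlapped, with the highest value in WT. The log2 fold change was -0.020 ± 0.044 (adjusted p = 0.72), with an interval of the ratio from 0.925 to 1.05. The call depended on the processing. With an offset for GC content and length together, *DICER1* (40.2% GC, 22.15 kb of annotated exon) was called higher (log2 0.18). With library size alone it was called lower (-0.14). *DICER1-AS1*, an antisense RNA that overlaps it by 366 bp, fell from 6.20 ± 0.482 to 3.13 ± 0.522 CPM (adjusted p = 1.39e-05).

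*TARBP2*, whose protein TRBP helps DICER1 to bind and cut precursors, lies on the plus strand of chromosome 12 (53500921 to 53506431). It gave 17.56, 15.15 and 15.29 CPM in WT, and 32.73, 34.38 and 33.3 CPM in those labelled ΔTUT4/7. All 3 knockout-labelled values were far above the WT values. Its mean rose from 16 ± 1.35 to 33.47 ± 0.838 CPM (2.1-fold, log2 1.07 ± 0.0777, adjusted p = 1.31e-10), and stood 0.83 (log2) above the median of its 195 neighbouring expressed genes. The 95% intervals of the ratio overlapped between *TARBP2* (1.88 to 2.35) and *DROSHA* (1.89 to 2.16), and with the GC and length offset *DROSHA* had the larger log2 fold change (1.148 against 0.9994). The log2 ratio of *TARBP2* to *DICER1* went from -4.08 ± 0.161 to -2.99 ± 0.043, so their ratio was 2.13-fold higher. The difference of 1.09 in this log2 ratio became 0.82 with the GC and length offset. The canonical transcripts had 60.1% (*TARBP2*) and 40.2% GC (*DICER1*), and their annotated exons covered 4.09 and 22.15 kb. The GC and length parts of the offset were not tested apart. *PRKRA*, which encodes PACT, another double-stranded RNA-binding partner of DICER1, rose as well (82.89 ± 2.63 to 105.1 ± 2.55 CPM, 1.27-fold, adjusted p = 3.27e-06).

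The genes most like *TARBP2* in their log2 CPM over the 6 libraries, each centred on its WT mean, were *MON1A*, *PSMA7* and *PHC2*, with root-mean-square differences of 0.031, 0.033 and 0.041 among 13495 genes. Those most like *DGCR8*, the gene with the smallest change, were *COLEC12*, *TFAP2A* and *PIGS*, at 0.015, 0.017 and 0.018. These are descriptions of likeness over 6 libraries of only 2 groups.

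*AGO1*, *AGO3* and *AGO4* lie side by side on the plus strand of chromosome 1, between 35808016 and 36072500, in the order *AGO4*, *AGO1*, *AGO3*. They encode Argonautes that bind miRNAs, and of these adjacent genes 1 was called lower, 1 higher and 1 not at all. *AGO4* gave 61.24, 64.22 and 60.29 CPM in WT and 45.99, 40.26 and 40.96 CPM in those labelled ΔTUT4/7. It fell in every knockout-labelled library below all WT libraries, from 61.92 ± 2.05 to 42.41 ± 3.13 CPM (0.687-fold, log2 -0.54 ± 0.0616, adjusted p = 1.41e-07).

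*AGO1* gave 233.0, 232.1 and 234.2 CPM in WT and 254.8, 246.3 and 269.5 CPM in the libraries labelled ΔTUT4/7. The groups did not overlap, but the shift was small: 1.1-fold (log2 0.14 ± 0.0442, adjusted p = 0.00987). Without knockout-labelled replicate 3 the log2 fold change was 0.10 and the call was lost (adjusted p = 0.0969). It was also lost with library size alone (0.025), upper-quartile factors (0.040) and a filter at a mean count of 50 (0.076). The same held for limma on log2(CPM + 1) (0.024), whose CPM were scaled by library size without TMM. *AGO3* gave 114.3, 122.8 and 116.2 CPM in WT and 118.6, 114.6 and 117.5 CPM in those labelled ΔTUT4/7. These values overlapped, with a log2 fold change of -0.011 ± 0.0467 (adjusted p = 0.858) and a ratio interval from 0.928 to 1.06. *AGO3* (38.9% GC, the lowest of the 10, and 21.15 kb of annotated exon) was called higher with the GC and length offset (0.18). With library size alone it was called lower (-0.13).

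The 117 to 120 expressed genes around this locus had median log2 fold changes between 0.34 and 0.37. Set against them, *AGO1*, *AGO3* and *AGO4* stood at -0.20, -0.38 and -0.88, so the rise of *AGO1* was smaller than the median rise around it. No 76-base word of the canonical transcript of any of the 10 genes occurred in another of the 10, the 4 Argonautes included. The share found in any other annotated gene was highest for *DGCR8* (9.095%) and *TARBP2* (7.247%), and the part of such shared reads in their values was not tested.

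*AGO2*, the Argonaute known for its slicing activity, lies on the minus strand of chromosome 8 (140520156 to 140635633). It gave 249.3, 255.9 and 246.1 CPM in WT and 233.1, 223.8 and 239.0 CPM in those labelled ΔTUT4/7. The groups did not overlap. The mean went from 250.4 ± 4.96 to 232.0 ± 7.67 CPM, 0.926-fold (log2 -0.11 ± 0.0433, adjusted p = 0.0344). This call was lost without WT replicate 1 (adjusted p = 0.0551), WT replicate 2 (0.0735), knockout-labelled replicate 1 (0.0878) or 2 (0.131), and the sign turned with the GC and length offset (0.062).

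Within a library, the other 3 Argonautes were set against *AGO2*. The log2 ratio of *AGO4* to *AGO2* went from -2.02 ± 0.0193 to -2.45 ± 0.103 and that of *AGO1* to *AGO2* from -0.10 ± 0.0347 to 0.15 ± 0.0237. For *AGO3* to *AGO2* the difference was the smallest, 0.10. The groups were apart in each of the 3 ratios, at the exact p of 0.1 that the design allows.

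*TNRC6A*, a GW182 protein that links Argonaute to the deadenylases, lies on the plus strand of chromosome 16 (24610209 to 24827632). The WT libraries gave 143.9, 147.9 and 150 CPM and those labelled ΔTUT4/7 gave 191.5, 186.9 and 203.3. All knockout-labelled values were above all WT values. The mean rose from 147.3 ± 3.1 to 193.9 ± 8.46 CPM, 1.32-fold (log2 0.40 ± 0.0459, adjusted p = 1.81e-07). The 89 expressed neighbours of *TNRC6A* had a median of 0.30, which leaves 0.099 between the gene and its surroundings.

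*TNRC6A* has the paralogs *TNRC6B* and *TNRC6C*. *TNRC6B* fell from 330.8 ± 10.3 to 148.6 ± 6.72 CPM (0.449-fold, adjusted p = 8.75e-15), and *TNRC6C* was called higher by 1.11-fold (adjusted p = 0.0225). The *TNRC6C* call was lost with library size alone (log2 0.037), upper-quartile factors (0.051), limma on log2(CPM + 1) (0.036) and a filter at a mean count of 50 (0.088). It was also lost without WT replicate 2 (adjusted p = 0.0797) and without knockout-labelled replicate 3 (0.105). In CPM per kb of exon, a comparison chosen after the values were seen, *TNRC6A* held 34.9% ± 1.1 of the sum of the 3 paralogs in WT and 54.3% ± 0.178 in the libraries labelled ΔTUT4/7 (SD, n = 3). The share of *TNRC6B* went from 50.8% ± 0.861 to 27% ± 0.25, and the sum of the 3 from 32.5 ± 0.527 to 27.5 ± 1.11 CPM per kb. *TNRC6A* thus stood below *TNRC6B* in all 3 WT libraries and above it in all 3 others.

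**Figure D2:**
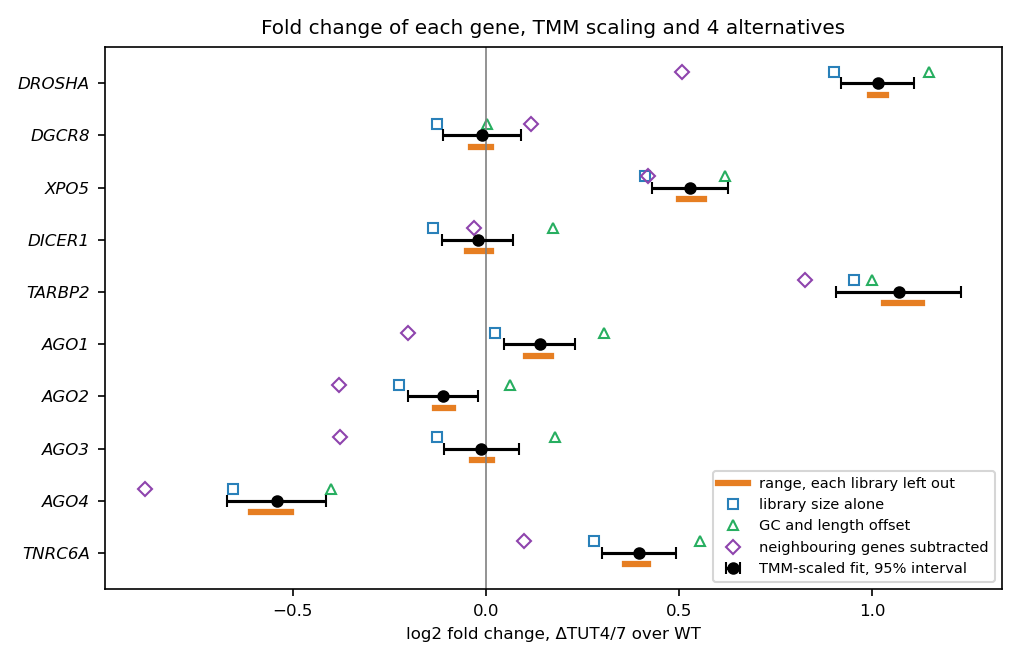
Log2 fold change of each gene, libraries labelled ΔTUT4/7 over WT. Black points and bars are the TMM-scaled edgeR fit with its 95% interval, orange bars the range over fits with 1 library left out, and open symbols library size alone, the GC and length offset and the value less the median of neighbouring genes. *DROSHA*, *XPO5*, *TARBP2* and *TNRC6A* stay above 0 and *AGO4* below 0 under all of them, while the other 5 lie on both sides.

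Across 16 alternative fits, *DROSHA*, *XPO5*, *TARBP2* and *TNRC6A* were called higher and *AGO4* lower in all 16. *AGO1* was called higher in 11 and *AGO2* lower in 11. *DGCR8* was called lower in 2, *AGO3* lower in 2 and higher in 1, and *DICER1* lower in 3 and higher in 1. Of these fits, library size alone and limma on log2(CPM + 1) shared the same scaling.

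Levels of different genes were compared per kb of exon (union of annotated exons, GENCODE 44). This is not the annotation release on which the authors counted the reads. The union can be far longer than the canonical transcript, as for *TARBP2* (4090 bp against 1510 nt) and *DICER1* (22151 bp against 10384 nt). In WT, *AGO1* (16.6 ± 0.0739 CPM per kb), *XPO5* (16 ± 0.458) and *AGO2* (15.8 ± 0.313) had the highest levels, and *XPO5* ranged from 15.6 to 16.5, across the values of *AGO2* and up to those of *AGO1*. *DROSHA* (14.4 ± 0.495), *DGCR8* (13.0 ± 0.51) and *DICER1* (12.2 ± 0.532) followed, the last pair with overlapping values. Below them came *TNRC6A* (11.4 ± 0.239), *AGO4* (8.34 ± 0.276), *AGO3* (5.57 ± 0.211) and *TARBP2* (3.91 ± 0.331), each apart from the next over the libraries at this length.

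In the libraries labelled ΔTUT4/7, *DROSHA* had the highest level per kb (29.1 ± 0.688), followed by *XPO5* (23.1 ± 1.09) and *AGO1* (18.3 ± 0.837), all apart from each other. *TNRC6A* (15.0 ± 0.652) and *AGO2* (14.6 ± 0.484) overlapped, as did *AGO4* (5.71 ± 0.421) and *AGO3* (5.53 ± 0.0978) at the low end. Between these pairs stood *DGCR8* (12.9 ± 0.0881), *DICER1* (12 ± 0.148) and *TARBP2* (8.18 ± 0.205). *DROSHA* moved from rank 4 to rank 1 and *TARBP2* from rank 10 to rank 8. The order rests on the length used: per kb of coding exon *AGO2* ranked 1 in both groups, and *DROSHA* went from rank 7 to rank 3.

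The 4 Argonautes summed to 46.3 ± 0.717 CPM per kb in WT and 44.2 ± 1.48 in those labelled ΔTUT4/7 (two-sided exact permutation p = 0.1, the smallest possible). *AGO1* made up 35.8% ± 0.692 of that sum in WT and 41.4% ± 0.855 in the other group, and *AGO4* 18.0% ± 0.32 and 12.9% ± 0.865. The share of *AGO2* was 34.1% ± 0.199 in WT and between 32.9% and 33.3% in the other group, and that of *AGO3* 12% ± 0.283 and 12.5% ± 0.252. The shares of *AGO1* and *AGO4* were apart between the groups by several times their SD, in opposite directions. Per kb of coding exon *AGO2* had the largest share in both groups (39.4% and 37.6%).

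**Figure D3:**
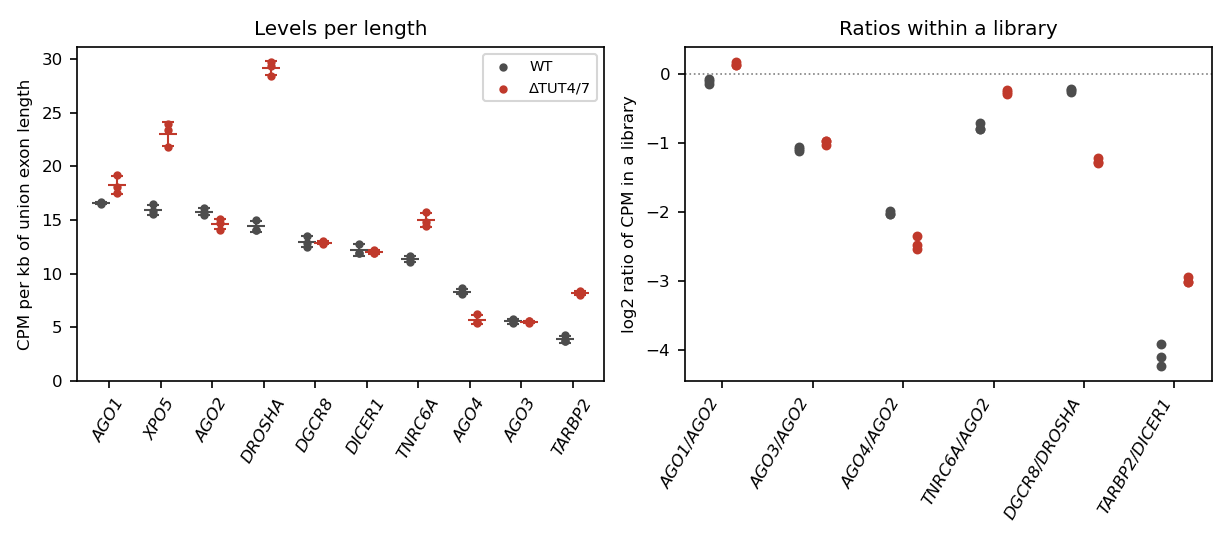
Left, CPM per kb of union exon length for each gene in the 3 WT libraries (grey) and the 3 labelled ΔTUT4/7 (red), with mean and SD, in the WT order. Right, the log2 ratio of 2 genes inside each library. *DROSHA* goes from rank 4 to rank 1, and the 2 groups of points are apart in all 6 ratios.

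The other genes of the pathway were read from lists by role, each beside the background of 28.6% higher and 29.0% lower. Among tested genes whose counts averaged at least 50, the shares were 39.2% higher and 31.7% lower. Of 13 Microprocessor cofactors and proteins that bind primary transcripts, 9 were called higher and 2 lower, with a median log2 fold change of 0.31. The RNA helicase gene *DDX17*, a Microprocessor cofactor, fell from 1522 ± 59.9 to 1047 ± 19.2 CPM (adjusted p = 6.54e-10). *METTL14*, of the m6A writer, was the other that fell (log2 -0.56), named after its value was seen. Of the 9 called higher, *SAFB2* alone reached 2-fold (2.02-fold, edgeR, adjusted p = 7.51e-10), also named after its value was seen.

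All 6 export factors and Dicer partners were called higher, with a median of 0.39. *RAN*, the GTPase that exportin-5 needs to carry its cargo, went from 388.2 ± 15.6 to 780.6 ± 17.2 CPM (2.01-fold, adjusted p = 3.5e-14), and *DHX9*, an RNA helicase, from 410.3 ± 12.6 to 646.3 ± 0.659 CPM (adjusted p = 1.67e-11). *XPO5* and its cofactor *RAN* were both higher in every library labelled ΔTUT4/7.

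Of 12 chaperones and cochaperones that help to load Argonautes, 11 were called higher, 7 of them at 2-fold or more, and none lower, with a median of 1.16. *HSP90AB1* rose from 1075 ± 28.1 to 2745 ± 47 CPM and *HSP90AA1* from 1663 ± 31.3 to 4140 ± 16.5 CPM (adjusted p = 2.12e-16 and 2.23e-16). *DNAJB1* alone was not called (101.2 ± 3.36 and 98.53 ± 4.91 CPM), and it was called lower with library size alone, upper-quartile factors and limma on log2(CPM + 1). These proteins serve many clients besides the Argonautes, of which *AGO1* alone was called higher.

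Of 29 silencing effectors, 13 were called higher and 10 lower, with a median of 0.073. The deadenylase subunit *PAN2* fell from 130.6 ± 2.58 to 50.19 ± 1.26 CPM (adjusted p = 1.58e-15), with *TNRC6B* next by p. Of 18 genes of miRNA tailing and decay, 9 were called higher and 4 lower, with a median of 0.12. These counts include the targeted genes, *TUT4* among those called higher and *TUT7* among those called lower. *LIN28B*, which binds let-7 precursors, was at 140.9 ± 5.46 CPM in WT and 123.0 ± 2.94 in the libraries labelled ΔTUT4/7 (0.873-fold, adjusted p = 0.00107), and its paralog *LIN28A* was near the detection limit, with group means of 0.634 and 0.599 CPM. *DIS3L2*, the exonuclease of uridylated RNA, and *TENT2*, another terminal nucleotidyltransferase, were not called (ratio intervals 0.886 to 1.07 and 0.912 to 1.06), but both were called lower with library size alone (adjusted p = 0.0469 and 0.0359) and with limma on log2(CPM + 1) (0.0395 and 0.0365).

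**Figure D4:**
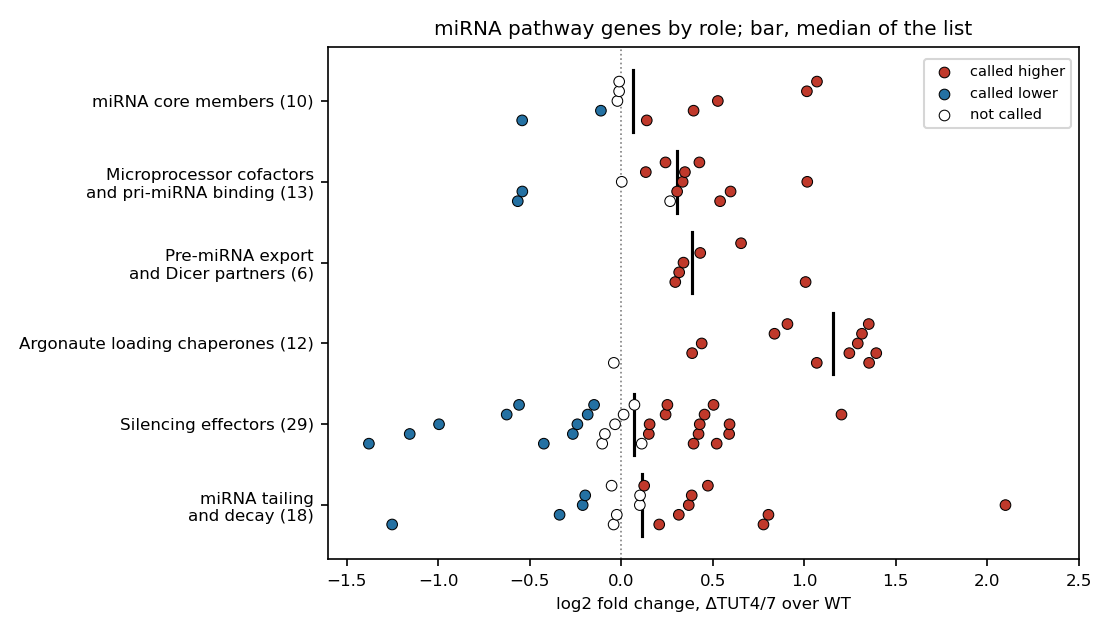
Log2 fold change, libraries labelled ΔTUT4/7 over WT, of each gene in the lists by role (number of genes in brackets), with called genes filled and the list median as a bar. The chaperone list has a median of 1.16 and that of the 10 miRNA processing and Argonaute genes 0.065, and *TUT4* is the point at 2.1.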

How the data were processed

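Total RNA of 3 WT and 3 ΔTUT4/7 HEK 293T libraries was depleted of rRNA and sequenced as paired 76-base reads. The authors aligned the reads to hg38 with STAR 2.7.3a and quantified genes in Partek Flow 10.0.22, and the deposited table holds estimated counts, which need not be whole (45.2% to 50% of values per library were not). A second deposited table holds the authors' own comparison (fold changes and p-values) and was not used. The replicates are labelled biological, and nothing says more of how the cultures were separated, so p-values measure the spread between these libraries.

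Estimated counts were rounded, and the 23952 genes with a count above 12 in some library were scaled with TMM and tested with edgeR 4.0.16 in R 4.3.3 (quasi-likelihood, robust, group as the only term), adjusted by Benjamini-Hochberg over all tested genes and called at FDR under 0.05. Intervals are at the 95% level. Depth sets the counting error, and *TARBP2*, with the fewest counts of the 10 genes, had the largest SE. Ratios were tested by two-sided exact permutation. Other settings tried were scaling by library size, by RLE or by upper-quartile factors, DESeq2 1.42.0, limma-voom and limma 3.58.1 on log2(CPM + 1), other filters, a replicate block, a GC and length offset, each library left out and subtraction of neighbouring genes within 5 Mb whose counts averaged at least 50. In limma on log2(CPM + 1) the CPM were relative to library totals without TMM, as with library size alone. The main edgeR fit alone was run on simulated counts, in which 200 of 22954 genes were changed and 91% of these were recovered. With so few changed genes, the simulation does not test the scaling between libraries in a comparison as broad as this one.

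The 10 genes and the lists were chosen with earlier results of these data known. Named are the 10 genes, *TUT4*, *TUT7*, chosen paralogs and partners, the 2 genes with the smallest p of each list (1 of them is not reported here), the 3 genes most like *TARBP2* and *DGCR8* (the largest and the smallest change of the 10), and genes overlapping a member. Lengths and GC came from GENCODE 44, matched by symbol and chromosome for 21633 of 30270 genes and by position for 8130 more. RefSeq gave a start window for 9 of the 10 genes (not *AGO2*). Overlaps not given above were of *TRMT2A* with *DGCR8* (3 bp), *AC023509.3* with *TARBP2* (16 bp), and of low-count RNAs with *XPO5*, *AGO1*, *AGO2*, *AGO3* and *TNRC6A*. The symbols *Y_RNA* and *Metazoa_SRP*, each of many gene copies, are listed with spans that run over *DICER1* and *TARBP2* (71783 and 5511 bp) and held 2421 and 660 counts over the 6 libraries.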

Additional observations from a re-analysis of the deposited data

How the results depend on the processing

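Library size alone, upper-quartile factors and limma on log2(CPM + 1) moved the median of all genes by -0.114, -0.10 and -0.11 (log2), and 59.9%, 58.6% and 59.9% of their calls were lower, against 6958 lower and 6855 higher calls with TMM. The genes called higher at 2-fold were 722 where only genes averaging at least 50 counts were tested and 545 with limma on log2(CPM + 1), against 1412, and those lower 1440 and 1559, against 2969. Of the 10 genes, 5 were called lower with library size alone and with limma on log2(CPM + 1), 1 with the GC and length offset, and 1 to 2 with a library left out, against 2. Of the chaperones, 1 was lower with library size alone, upper-quartile factors and limma on log2(CPM + 1), against 0. The sign turned with the GC and length offset for *DGCR8* (0.0042), *DICER1* (0.18), *AGO2* (0.062), *AGO3* (0.18) and *TENT2* (0.089), with limma-voom for *LIN28A* (0.016), and for *AGO1* when neighbours were subtracted (-0.20). With 1 library left out the range crossed 0 for *DGCR8* (-0.039 to 0.014), *DICER1* (-0.047 to 0.013), *AGO3* (-0.036 to 0.017) and *LIN28A* (-0.27 to 0.27). Per kb of coding exon the ranks in WT were *DROSHA* 7, *XPO5* 6, *DICER1* 3, *AGO1* 2, *AGO2* 1, *AGO3* 4, *AGO4* 9 and *TNRC6A* 8. In the libraries labelled ΔTUT4/7 they were *DROSHA* 3, *DGCR8* 7, *XPO5* 4, *DICER1* 6, *TARBP2* 9, *AGO1* 2, *AGO2* 1, *AGO3* 5, *AGO4* 10 and *TNRC6A* 8. The cause of these changes was not tested.

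Replicate numbers did not pair the libraries: same-numbered libraries had residual correlations of 0.039, -0.027 and -0.017. With the replicate block, 6832 genes were called higher and 6846 lower, and 5 and 2 of the 10 genes.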
